A study of Mus musculus with 6 samples.

Results

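Metallothioneins and zinc transporters were followed by RNA-seq in organoids of the mouse intestine, which are epithelial cultures grown in 3 dimensions. The set holds 8 of the 24956 rows of the table, found by gene symbol: the metallothioneins Mt1, Mt2 and Mt3, the zinc-sensing transcription factor Mtf1, the exporters Slc30a1 and Slc30a10, and the importers Slc39a4 and Slc39a5. The genes were chosen by name from a list drawn up with the contrast between low glutamine and control already known, so their values in this contrast are given as a description and without a test. The samples were 3 libraries from organoids in low glutamine medium and 3 from organoids in control medium, all of the Apc Min genotype, in which a truncated Apc weakens the complex that degrades beta-catenin. The sources used here do not give the glutamine concentrations, how long glutamine was lowered, the gut segment, or the age and number of mice. By its design text the series has biological replicates in each group, without saying whether they came from separate animals, so p-values measure only the spread between these samples, which may be technical.

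Metallothioneins are small cysteine-rich proteins that bind zinc, copper and cadmium in the cytosol. When free zinc rises, MTF1 binds metal response elements in the promoters of metallothionein genes and of Slc30a1 and raises their transcription, so that metallothionein RNA is widely used as a readout of cellular zinc. SLC30 proteins mostly carry zinc out of the cytosol, across the plasma membrane or into vesicles, and SLC39 proteins mostly carry it in. In the small intestine, SLC39A4 takes up dietary zinc at the apical membrane of enterocytes, SLC30A1 exports it, and in mice SLC39A5 lies on the basolateral side.

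The libraries of both groups were epithelial. The epithelial keratin Krt8 averaged 711 ± 37.4 RPKM in low glutamine and 561.8 ± 58.4 RPKM in control (SD, n = 3 each), RPKM being reads scaled to transcript length and library size. Of the 7 epithelial markers 4 were higher and 3 (Krt19, Vil1 and Cdx2) lower in low glutamine, without overlap of the groups. Over all 11082 tested genes the groups did not overlap for 70.2%. The stromal collagen Col3a1 and the macrophage gene Adgre1 were listed at 0 in all 6 libraries, and Vim, which is not restricted to stroma, was the one tested stromal marker, at 11.5 RPKM in low glutamine and 3.29 RPKM in control. The summed stromal markers were at 11.2 to 13.2 RPKM in low glutamine and 3.17 to 3.90 RPKM in control. The 7 immune markers summed to 2.07 to 2.39 RPKM in low glutamine and 1.48 to 1.51 RPKM in control. Of these the macrophage gene Cd68 averaged 1.998 RPKM in low glutamine and 0.685 RPKM in control. The myeloid integrin Itgam averaged 0.230 and 0.783 RPKM, and neither gene's groups overlapped. Cd68 met the test's limit, a mean of 1 RPKM, only through low glutamine (limma adjusted p = 1.0e-06), and Itgam was too low to be tested. Their part in the results was not tested. Depths estimated from the lowest values were 28.2 to 34.0 M reads in low glutamine and 24.4 to 35.3 M reads in control (M, mega). Sex-linked transcripts separated the groups as well: Xist stood at 0.0237 to 0.0350 RPKM in low glutamine and 83.1 to 90.5 RPKM in control, and the Y-linked Eif2s3y at 25.2 to 31.4 RPKM in low glutamine while listed at 0 in every control library. This difference went with the medium in every library, so for each result that follows they cannot be told apart. Of 11082 genes tested with limma, 66.4% passed an adjusted p of 0.05, 36.1% as higher and 30.3% as lower in low glutamine.

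The promoters of Mt1, Mt2, Slc30a1 and Slc30a10 are shown first, because these 4 genes were all lower in low glutamine and MTF1 is known to act on the first 3. As the direction in this contrast guided the choice, nothing about MTF1 is read from their matches. RefSeq promoter windows (GRCm38.p6, the mm10 assembly; 250 bases before to 50 after a transcript start) were on hand for 7 of the 8 genes, Slc39a4 being the other. They were searched on both strands for the core of the metal response element, TGCACNC or TGCGCNC, with N for any base. Capitals mark the core, which appears as its reverse complement where it lies on the strand opposite to the gene. The base before the start is counted as -1 and the first base of the transcript as 1. The start used in the windows of Mt1 and Slc30a1 lies inside the gene bounds given further on. Other starts of these genes were not searched, so their positions and counts hold for that start only. Cores outside the window are missed. The upstream stretches of Mt2 (chr8:94172368-94172617, plus strand) and Slc30a10 (chr1:185454598-185454847, plus strand) are given in full, and for Mt1, Slc30a1 and Mt4 each core with 10 bases on either side:
Mt2, 250 bases before the start: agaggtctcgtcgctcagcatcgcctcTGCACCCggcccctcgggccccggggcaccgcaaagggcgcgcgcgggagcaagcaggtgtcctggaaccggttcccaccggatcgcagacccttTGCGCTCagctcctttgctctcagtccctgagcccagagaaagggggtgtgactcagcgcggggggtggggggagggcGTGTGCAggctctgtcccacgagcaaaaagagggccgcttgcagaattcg
Slc30a10, 250 bases before the start: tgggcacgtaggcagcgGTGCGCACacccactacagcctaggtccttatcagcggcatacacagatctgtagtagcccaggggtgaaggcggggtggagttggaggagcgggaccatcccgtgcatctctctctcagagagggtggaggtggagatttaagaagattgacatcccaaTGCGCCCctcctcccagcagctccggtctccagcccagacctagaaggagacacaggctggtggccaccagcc
Mt1, core at -23 to -17 (chr8:94179056-94179082): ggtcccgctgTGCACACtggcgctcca
Mt1, core at 3 to 9 (chr8:94179081-94179107): cagggagctcTGCACTCcgcccgaaaa
Mt1, core at 21 to 27 (chr8:94179099-94179125): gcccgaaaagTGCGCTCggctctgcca
Slc30a1, core at -43 to -37 (chr1:191906728-191906754): cgggggttccGAGTGCAaagcaaagtt
Slc30a1, core at 31 to 37 (chr1:191906801-191906827): cctccgggccGAGCGCAgtcgccgcgg
Mt4, core at -91 to -85 (chr8:94137103-94137129): tcactgggccGTGTGCAgggcgtctgg

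The Mt2 window held 4 matches, of which the last, at 5 to 11, lies past the start and outside the stretch printed. Mt1 and Slc30a10 held 3 each, and in Slc30a10 the matches at -233 to -227 and -232 to -226 are 1 place read on both strands. Slc30a1 held 2, Mt3 and Mt4 1 each, and Slc39a5 1 in the first of its 2 windows and 0 in the second. The cores of Slc39a5 (-129 to -123), which was also lower in low glutamine, and Mt3 (28 to 34), which was not, are not printed. Whether cores go with direction was not tested. The Mtf1 window held none of these letters. Of all 32851 RefSeq windows of this length, 25.7% held at least 1 match, 7.11% at least 2, 1.97% at least 3 and 0.517% at least 4. A match is a description of letters and not a measured binding site.

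**Figure D1:**
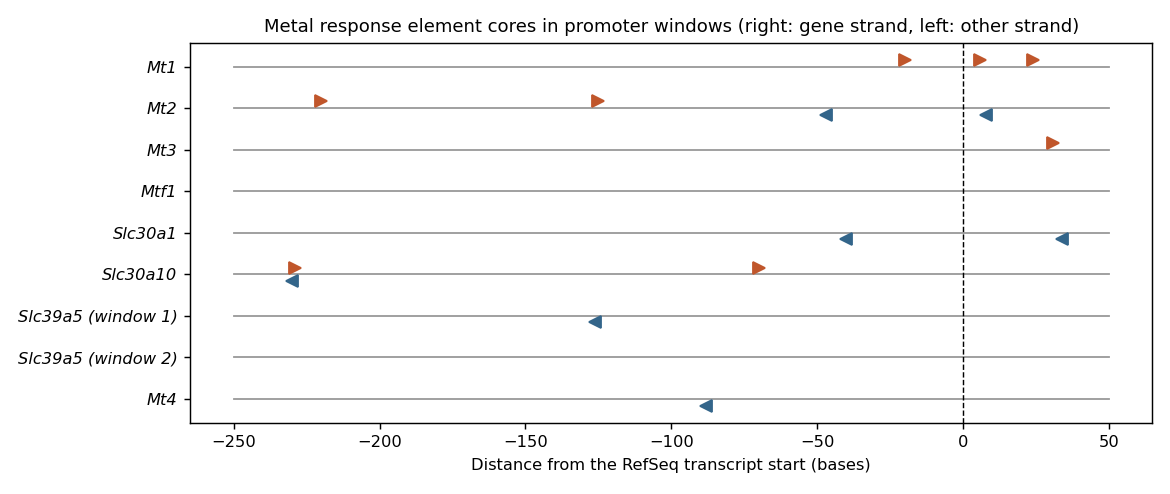
Position of metal response element cores in the RefSeq promoter windows, 1 line per window, against distance from the transcript start in bases; right-pointing marks lie on the gene's strand and left-pointing marks on the other. Mt2 has 4 marks, Mt1 and Slc30a10 have 3 each, and Mtf1 and the second window of Slc39a5 have 0.

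Mt1 and Mt2 were the most abundant of these genes in both media and were lower in low glutamine. Mt1 (gene ID 17748, chromosome 8, 94178883 to 94180327) measured 1815, 1794 and 1415 RPKM in low glutamine replicates 1, 2 and 3, against 4739, 4710.5 and 3416 RPKM in control replicates 1, 2 and 3. Every low glutamine value lay below every control value. The means were 1675 ± 225 RPKM in low glutamine and 4289 ± 756 RPKM in control (SD, n = 3 each), a 2.56-fold lower level, or a log2 fold change of -1.35 on the log2(RPKM + 1) scale, which understates the change of low genes.

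Mt2 (gene ID 17750, chromosome 8, 94172618 to 94173567) measured 1645, 1567 and 1216.5 RPKM in low glutamine, against 3809.9, 3766 and 2673 RPKM in control. The groups again did not overlap, and the log2 fold change was -1.20. Summed, Mt1 and Mt2 made up 1.04%, 1.02% and 0.758% of all RPKM in the low glutamine libraries and 2.31%, 2.29% and 1.68% in the control libraries. By RPKM, Mt1 ranked 6, 5 and 18 among all genes in low glutamine replicates 1, 2 and 3, and 2, 2 and 3 in control. The ratio of Mt2 to Mt1 was 0.907, 0.873 and 0.860 in low glutamine and 0.804, 0.799 and 0.782 in control, so Mt1 was lower by somewhat more than Mt2. The longest exact stretch that the main GENCODE M21 transcripts of Mt1 and Mt2 share is 20 bases (27 for Mt1 and Mt3). A transcript antisense to Mt2, Gm45774, overlaps its exons, and since the strand setting of the counting was not given, reads of the pair cannot be told apart.

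Mt3 (chromosome 8, 94152607 to 94154148), a metallothionein best known from the brain, was near the detection floor. It measured 0.874, 0.508 and 1.05 RPKM in low glutamine, against 0.298, 0.473 and 0.457 RPKM in control. With a transcript of 536 bases and the estimated depths, these values correspond to 16, 9 and 16 reads in low glutamine and 5, 9 and 6 reads in control, each within 0.09 of a whole read. The groups did not overlap in RPKM, although replicate 2 of each rested on 9 reads. Mt3 had a mean below 1 RPKM and was the one member not tested in the fit across all genes.

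**Figure D2:**
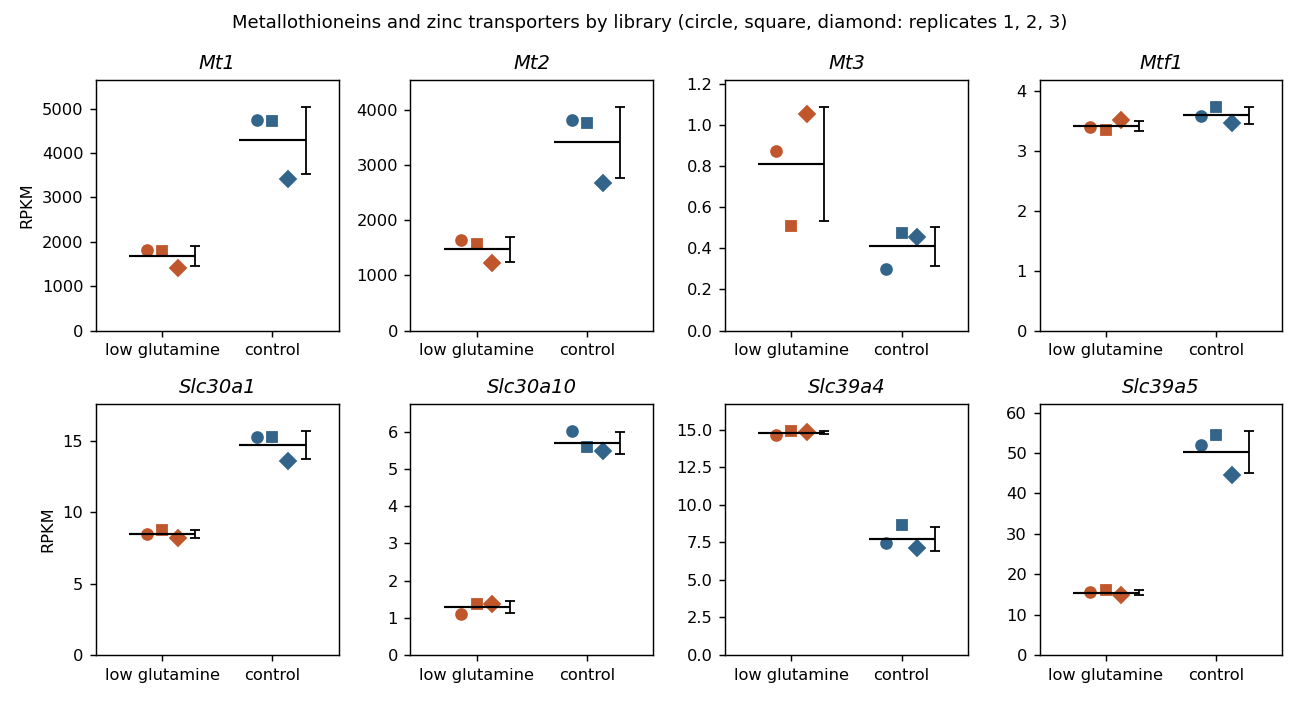
RPKM of the 8 genes in each library, low glutamine left and control right in each panel, each panel with its own linear axis from 0; points are libraries, horizontal lines the group means and error bars the SD (n = 3). Mt1 lies at 1415 to 1815 RPKM in low glutamine and 3416 to 4739 RPKM in control, and Mtf1 is the one gene whose groups overlap.

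Mtf1 (chromosome 4, 124802549 to 124849800) measured 3.39, 3.34 and 3.51 RPKM in low glutamine, against 3.57, 3.73 and 3.45 RPKM in control. The groups overlapped, with a log2 fold change of -0.055. It was 0.044 after all libraries were scaled to the same sum and 0.066 when Rn45s, the ribosomal RNA precursor, was left out of that sum. With median-of-ratios scaling it was -0.13 and with quantile normalization -0.18, and Mtf1 then counted among the genes called lower. The last exon of Mtf1 overlaps 1110065P20Rik, which is annotated on the opposite strand and measured 8.08 to 10.3 RPKM in low glutamine and 6.87 to 8.09 RPKM in control. Reads from the overlap cannot be told apart.

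Both exporters were lower in low glutamine. Slc30a1 (chromosome 1, 191906697 to 191913248), the zinc exporter of the plasma membrane and the transporter gene classically driven by MTF1, measured 8.46, 8.79 and 8.22 RPKM in low glutamine, against 15.3, 15.3 and 13.6 RPKM in control. The groups did not overlap, and the mean was 1.73-fold lower (log2 fold change -0.73). Its promoter sites are those shown above at -43 to -37 and 31 to 37. On the opposite strand 1700034H15Rik overlaps an exon of Slc30a1, and was near 0, at 0.146 to 0.189 RPKM in low glutamine and 0.149 to 0.277 RPKM in control.

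Slc30a10 (chromosome 1, 185454848 to 185468762), whose human counterpart is known chiefly as an exporter of manganese, measured 1.10, 1.36 and 1.38 RPKM in low glutamine, against 6.02, 5.58 and 5.50 RPKM in control. The groups did not overlap. The mean was 4.46-fold lower, the largest ratio among the 8 genes, with a log2 fold change of -1.56. As the gene is low, the pseudocount mattered: adding 0.1 gave -2.08 and adding 5 gave -0.77. Gm2061, a non-coding gene on the opposite strand with an exon inside the first exon of Slc30a10, measured 0.513, 0.598 and 0.508 RPKM in low glutamine and 3.94, 5.10 and 4.44 RPKM in control. Without strand, such reads cannot be assigned to either gene.

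The importers of the gut went opposite ways. Slc39a4 (chromosome 15, 76612383 to 76618506), the apical importer whose loss in humans causes the zinc deficiency disease acrodermatitis enteropathica, measured 14.7, 14.9 and 14.85 RPKM in low glutamine, against 7.47, 8.66 and 7.14 RPKM in control. Every low glutamine value lay above every control value, and the log2 fold change was 0.86. The 3 low glutamine libraries lay close together, with an SD of 0.113 RPKM against 0.798 RPKM in control.

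Slc39a5 (chromosome 10, 128395927 to 128401276), the basolateral transporter, measured 15.5, 16.045 and 14.7 RPKM in low glutamine, against 51.9, 54.5 and 44.5 RPKM in control. The groups did not overlap, and the mean was 3.26-fold lower (log2 fold change -1.64). In control the level of Slc39a5, in RPKM and so per length, exceeded that of Slc39a4 in every library, at 44.5 to 54.5 against 7.14 to 8.66 RPKM. In low glutamine the pair overlapped, at 14.7 to 16.045 RPKM for Slc39a5 and 14.7 to 14.9 RPKM for Slc39a4.

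Of the 7 members tested in the fit across all genes, 1 (Slc39a4) was called higher and 5 lower, where 66.4% of all genes were called, 36.1% as higher and 30.3% as lower. Groups did not overlap for 7 of the 8 members, 2 of them higher and 5 lower. Among the 18846 genes above 0 in any library this held for 57.1%, with 36.0% higher and 21.1% lower, and among the 11082 tested for 70.2%, with 38.9% higher and 31.3% lower. The list was drawn up from this contrast, so nothing is read from either count.

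Cell type markers moved alongside, where 36.1% of all tested genes were called higher and 30.3% lower. Of 16 enterocyte markers 13 fell and 3 rose, and their summed level was 786 to 871 RPKM in low glutamine and 2839 to 3042 RPKM in control. All 8 goblet cell markers fell (519 to 590.04 against 1101 to 1327 RPKM), all 11 Paneth cell markers rose (6910.5 to 7702 against 2528 to 2681 RPKM), and all 5 stem cell markers rose (1327 to 1499 against 662 to 726 RPKM). Of 8 enteroendocrine markers 7 rose and Gcg fell (1296 to 1480.0 against 347 to 361 RPKM), and no marker of these lists was at 0. Mptx2 and Pla2g2a averaged below 1 RPKM in control, and Lct, Slc15a1 and Clca1 in low glutamine. Each of these met the limit of 1 RPKM only through the group where it was high. Fabp1, a lipid-binding protein and the enterocyte marker with the highest level in control, fell to a mean of 73.9 RPKM in low glutamine, against 828 RPKM in control. The intestinal alkaline phosphatase Alpi, a zinc enzyme, and the aminopeptidase Anpep, also a zinc enzyme, rose together with Apob. The part of these cell types in the values of the zinc genes was not tested, and in bulk RNA fewer cells of a type and less RNA per cell cannot be told apart.

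Mt1, Mt2, Mt3 and Mt4 lie in a cluster of 43.1 kb, in which Mt4, a metallothionein known from squamous epithelium and not part of the chosen list, is the farthest from Mt1. Mt4 (chromosome 8, 94137204 to 94139031) measured 4.21, 2.95 and 1.81 RPKM in low glutamine, against 15.8, 12.9 and 8.80 RPKM in control. The groups did not overlap, and Mt4 fell by 1.77 ± 0.21 (SE) on the log2 scale, with a limma adjusted p of 9.3e-06. Its level stayed at 0.128% to 0.232% of that of Mt1 in low glutamine and 0.257% to 0.334% in control, and the longest exact stretch shared with the Mt1 transcript is 11 bases.

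The protein-coding genes on either side of the cluster rose slightly. Bbs2, a component of the ciliary BBSome, averaged 2.73 ± 0.106 RPKM in low glutamine and 2.19 ± 0.152 RPKM in control (log2 fold change 0.23 ± 0.062 SE, limma adjusted p = 0.0064), and did not pass after quantile normalization (adjusted p = 0.45). Nup93, a nuclear pore protein, averaged 10.04 ± 0.447 RPKM in low glutamine and 8.77 ± 0.198 RPKM in control (0.18 ± 0.052, adjusted p = 0.010). Along the chromosome, Mt4, Mt2 and Mt1 were lower in low glutamine, while Mt3 between them and the outer neighbours were not. Mt3 was not tested and rests on an estimated 5 to 16 reads per library, so its direction is uncertain.

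**Figure D3:**
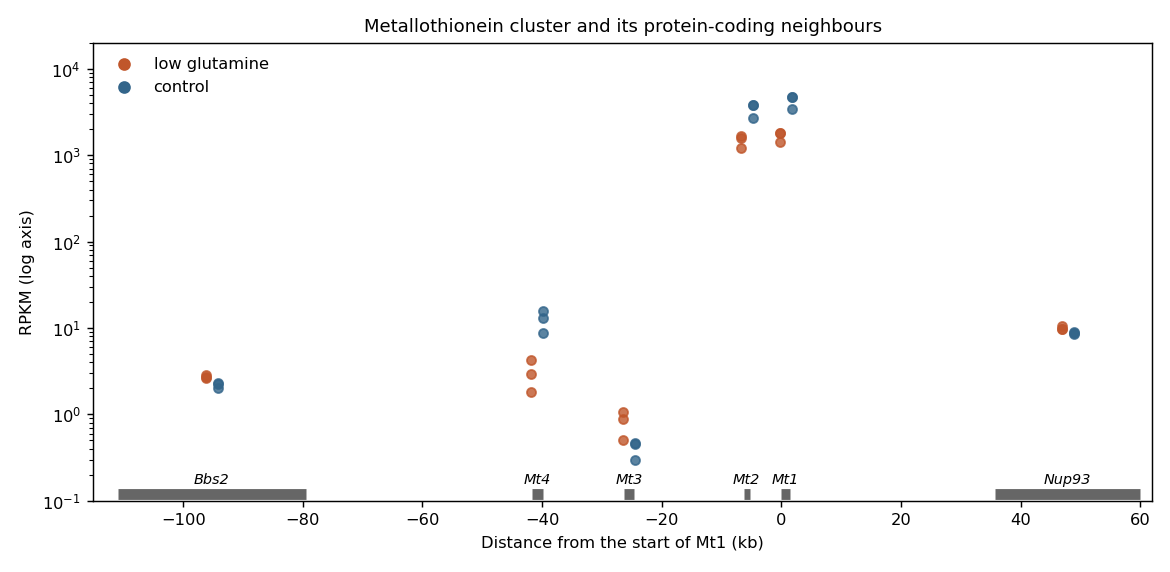
RPKM (log axis) of the metallothionein genes and their protein-coding neighbours against distance from the start of Mt1 in kb; grey bars are the gene bounds, with Nup93 drawn only as far as the axis reaches, and each point is a library. Mt4, Mt2 and Mt1 are lower in low glutamine in every library, and Bbs2, Mt3 and Nup93 are not. Mt3 rests on an estimated 5 to 16 reads per library.

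Within each medium, replicate 3 was the lowest library for Mt1, Mt2 and Mt4, and also for Slc30a1 and Slc39a5: Mt1 stood at 84.5% of the group mean in low glutamine replicate 3 and at 79.7% in control replicate 3. On the log2 scale, the difference of replicate 3 from the mean of replicates 1 and 2 was -0.35 for Mt1 and -0.40 for Mt2 in low glutamine, and -0.47 and -0.50 in control. The same difference was -0.061 and -0.16 for Slc30a1 and -0.093 and -0.25 for Slc39a5, in low glutamine and control. The median over all tested genes was 0.073 in low glutamine and -0.043 in control, and 0.650% (low glutamine) and 0.587% (control) of tested genes had a lower value than Mt1. Slc30a1 and Slc39a5 were less extreme. The share of tested genes below Slc30a1 was 11.7% in low glutamine and 13.9% in control, and below Slc39a5 7.88% and 4.23%. For Slc30a10 and Mtf1 the difference of replicate 3 was 0.097 and 0.046 in low glutamine and -0.065 and -0.062 in control. Between libraries of the same number, the ratio of low glutamine to control was 0.383, 0.381 and 0.414 for Mt1 and 0.432, 0.416 and 0.455 for Mt2.

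**Figure D4:**
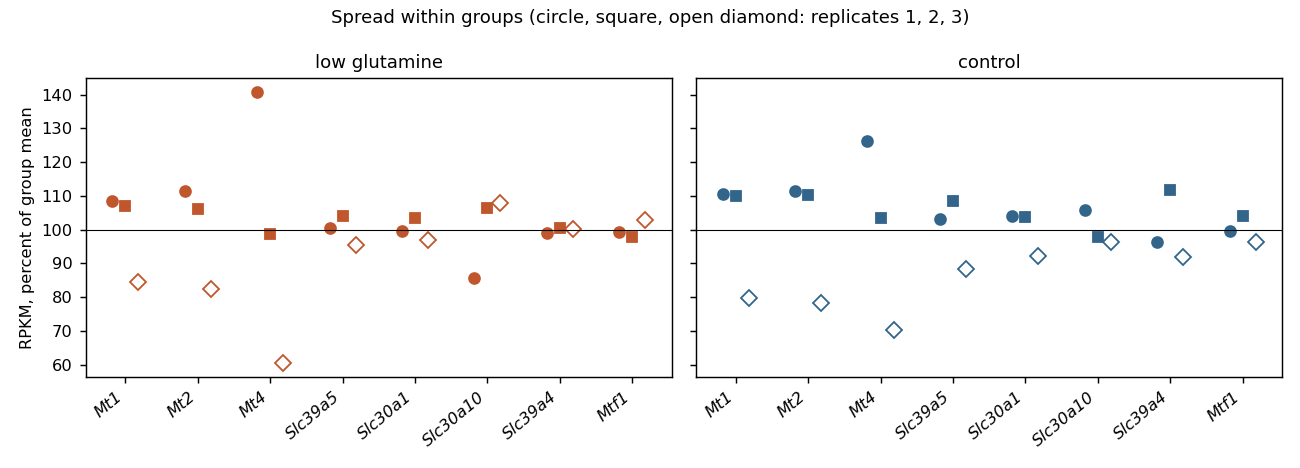
RPKM of each library as a percent of its group mean, low glutamine left and control right; circles, squares and open diamonds are replicates 1, 2 and 3. Replicate 3 is lowest for Mt1, Mt2 and Mt4 in both groups, with Mt1 at 84.5% in low glutamine and 79.7% in control.

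The genes whose log2(RPKM + 1) followed Mt1 most closely over the 6 libraries, among 7993 others with a mean of at least 5 RPKM, were Cox5a, Slc22a18, Map2k2, Tff3 and Amn (Pearson r of 0.998 to 0.999). Mt2 came next, in place 6 with r = 0.998, followed at a distance by Slc30a1 (r = 0.990, place 82), Mt4 (r = 0.987, place 117) and Slc39a5 (r = 0.983, place 167). All of these were lower in low glutamine. The place of Slc39a4, which was higher, was not determined, and Mt3, Mtf1 and Slc30a10 were below the limit of 5 RPKM. For Slc30a10 the 5 closest were Ikbke, Arhgef39, Dlat, Ceacam18 and Gnpda1 (r of at least 0.999). These values describe 6 points that form 2 groups and share their medium, so they describe likeness over these libraries only.

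The remaining members of both transporter families were tested with limma. These lists, and the MTF1, iron and copper lists further on, were also chosen with earlier results of these data known. Their counts and p-values therefore describe these libraries and are not independent support. Of the 8 other SLC30 genes, Slc30a8 was listed at 0 everywhere and Slc30a3 was below 1 RPKM. Of the 6 tested, 4 fell and 0 rose by limma, and at an unadjusted p under 0.05 the counts were again 4 and 0. Of all tested genes 30.3% were lower and 36.1% higher. The list median was -0.37, against 0.03 over all tested genes. Slc30a2, which loads zinc into secretory granules including those of Paneth cells, averaged 12.3 ± 0.458 RPKM in low glutamine and 18.3 ± 0.511 RPKM in control (log2 fold change -0.54 ± 0.052, adjusted p = 1.6e-06), while the 11 Paneth cell markers rose. The vesicular exporter Slc30a4 fell by 0.55 (adjusted p = 1.1e-06), Slc30a9 by 0.42 (adjusted p = 1.8e-05) and Slc30a5 by 0.31 (adjusted p = 1.7e-04). Slc30a5 works with Slc30a6 in the secretory pathway, where both and Slc30a7 supply zinc to enzymes such as alkaline phosphatases. Slc30a6 measured 6.67 and 6.96 RPKM and Slc30a7 6.14 and 6.63 RPKM in low glutamine and control, and neither passed the test (adjusted p = 0.39 and 0.15). Their sign turned positive under the common-sum scaling, and with median-of-ratios scaling both passed as lower (adjusted p = 0.043 and 0.0053). With quantile normalization Slc30a7 passed as lower too (adjusted p = 0.012).

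Of the 12 other SLC39 genes, Slc39a12 was listed at 0 and Slc39a2 was below 1 RPKM. Of the 10 tested, 5 rose, 3 fell and 2 did not pass, with a median of 0.15, where 36.1% of all tested genes were higher and 30.3% lower. With a limit of 5 RPKM, 2 were called higher. Slc39a6 and Slc39a10, related importers of the plasma membrane, rose: Slc39a6 averaged 6.32 ± 0.110 RPKM in low glutamine and 2.92 ± 0.165 RPKM in control (0.90 ± 0.055, adjusted p = 2.3e-08), and Slc39a10, which MTF1 is reported to repress in mice, 1.94 ± 0.112 and 0.667 ± 0.0140 RPKM (0.82 ± 0.064, adjusted p = 2.5e-07). Slc39a10 was below 1 RPKM in control and met the limit of 1 RPKM only through low glutamine, and without a limit its adjusted p was 3.4e-05. Slc39a8, which carries zinc and manganese, rose by 0.40 (adjusted p = 2.3e-05), Slc39a13 by 0.48 (adjusted p = 2.9e-04) and Slc39a3 by 0.18 (adjusted p = 0.015). Slc39a14, an importer of zinc, iron and manganese, fell to 34.8 ± 0.818 RPKM in low glutamine, against 63.0 ± 1.82 RPKM in control (-0.84 ± 0.052, adjusted p = 2.6e-08). Slc39a11 fell by 0.37 (adjusted p = 2.8e-05) and Slc39a7, which releases zinc from the endoplasmic reticulum, by 0.20 (adjusted p = 0.010). Slc39a7 did not pass under the common-sum scaling (adjusted p = 0.11) or with quantile normalization (adjusted p = 0.10). Slc39a3 did not pass with median-of-ratios scaling (adjusted p = 0.13), with quantile normalization (adjusted p = 0.086) or without low glutamine replicate 1 (adjusted p = 0.10). Slc39a1 averaged 34.0 RPKM in low glutamine and 31.4 RPKM in control and did not pass (adjusted p = 0.079). It passed as higher under the common-sum scaling (adjusted p = 3.0e-04), with quantile normalization (adjusted p = 5.1e-04) and without low glutamine replicate 2 (adjusted p = 0.043). Slc39a9 averaged 16.4 RPKM in low glutamine and 18.1 RPKM in control (adjusted p = 0.055). It passed as lower with median-of-ratios scaling (adjusted p = 0.0021) and without low glutamine replicate 3 (adjusted p = 0.011). Slc39a9 also passed when replicate numbers entered as a block (adjusted p = 0.042), a fit whose p-values are too small to rely on. Whether the families differed from each other was not tested.

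**Figure D5:**
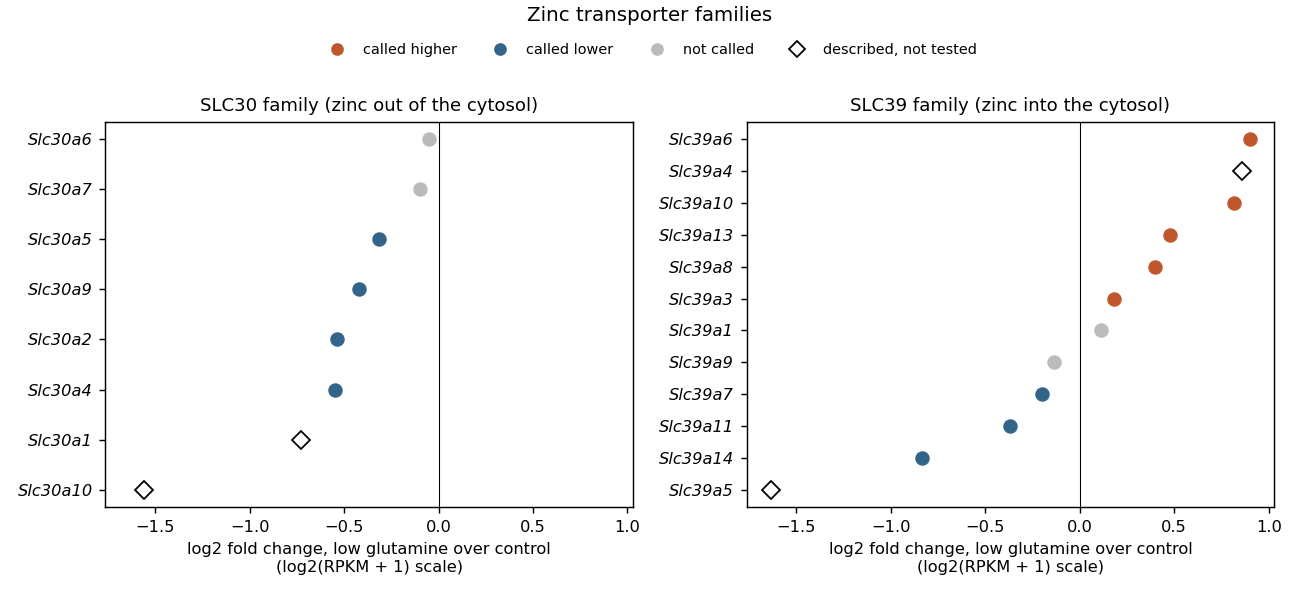
Log2 fold change (low glutamine over control, log2(RPKM + 1) scale) of the measured SLC30 genes (left) and SLC39 genes (right); circles were tested with limma and are coloured by call, and open diamonds are the described members. All 6 tested SLC30 circles lie below 0, of which Slc30a6 and Slc30a7 turn positive under the common-sum scaling, and the SLC39 circles run from -0.84 to 0.90.

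Other genes reported as MTF1 targets or as responding to metal load were tested too. Of 7 tested, 2 rose, 3 fell and 2 did not pass (median -0.24), where 36.1% of all tested genes were higher and 30.3% lower. Csrp1, a cytoskeletal LIM protein, rose by 1.16 (adjusted p = 1.2e-09), with 45.4 ± 1.33 RPKM in low glutamine and 19.8 ± 0.560 RPKM in control. Gclc, the catalytic subunit for glutathione synthesis, rose by 0.42 (adjusted p = 3.9e-05). Besides Mt4, the stress gene Ndrg1, which also responds to hypoxia, fell by 1.52 (adjusted p = 8.2e-10) and the selenoprotein Selenow by 0.76 (adjusted p = 1.1e-07). The heme oxygenase Hmox1, induced by cadmium and oxidants, measured 5.12 and 4.76 RPKM and did not pass (adjusted p = 0.30). Under the common-sum scaling it did (adjusted p = 0.020). The heat shock gene Hspa1b measured 2.79 and 3.53 RPKM (adjusted p = 0.14). It passed as lower with numbers as a replicate block (adjusted p = 9.2e-04), a fit whose p-values are too small to rely on. Hspa1b also passed as lower without control replicate 3 (adjusted p = 0.0013). Hspa1a, a near-identical copy of it, was below 1 RPKM, and the split of reads between the copies is uncertain.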

How the data were processed

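The authors deposited RPKM values, with a column for each library. Per the submitters' processing notes, mm10, Partek, HISAT2 2.0.4 and CASAVA 1.8 were used, with no role or order stated. For the annotation, the counting rule and strand, the sources used here give nothing. Depth was estimated from the lowest values of single-exon genes, as the depth at which most were whole reads: 84.0% to 90.9% of 81 to 99 values per library were whole within 0.02. The values checked also set the depth.

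The test was limma 3.58.1 (R 4.3.3) on log2(RPKM + 1), 3 low glutamine against 3 control libraries, with a variance trend, for genes averaging 1 RPKM or more across the 6 libraries. It was two-sided, with Benjamini-Hochberg adjustment over all 11082 genes and a threshold of 0.05. No count test was run. The fit was tested on simulated data with independent noise and a small share of changed genes. That run checks the code and does not show how the p-values behave in these data. The members and gene lists were chosen with earlier results of these data known. Named are all members, the genes of both transporter families and of the MTF1 list, up to 2 copper and 2 iron genes per direction, the neighbours of the cluster, the 5 genes most like Mt1 and Slc30a10, and markers that are at 0 or illustrate a list, some chosen after their values were seen. Plots were made with Python 3.11.15 and matplotlib 3.10.9.

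Deviations of same-numbered libraries from their group means correlated with r of 0.15, 0.25 and 0.57 for numbers 1, 2 and 3. The main fit was unpaired, and the number entered as a block only in an alternative. The labels do not say what a number stands for, and low glutamine replicate 1 correlated more with control replicate 2 (0.36). Low glutamine replicate 2 correlated with control replicate 1 at 0.20.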

Additional observations from a re-analysis of the deposited data

How the results depend on the processing

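Over 16 alternatives, each member kept its direction except Mtf1, and the counts of members called (1 higher, 5 lower) did not change without any 1 library. With median-of-ratios scaling or quantile normalization 6 were lower, Mtf1 included, and with a limit of 5 RPKM 4 were. Over all genes, 3360 of 11082 were called lower in the main fit and 4495 of 11074 with median-of-ratios scaling. The members were chosen with this contrast known, so nothing is read from their counts. Without 1 library, the log2 fold change was -1.51 to -1.23 for Mt1 and -1.72 to -1.58 for Slc39a5. Rescaling to a common sum moved the median of all genes from 0.03 to 0.14, and to 0.17 without Rn45s. The share of calls that were higher went from 54.4% to 69.1% and 71.7%, and was 42.1% with median-of-ratios scaling. Genes called higher numbered 2532 with a limit of 5 RPKM and 6040 with rescaling without Rn45s. Slc30a6 and Slc30a7 turned positive with rescaling to a common sum (0.058 and 0.014) and without Rn45s (0.082 and 0.038), where Slc39a9 was 0.011. None of these passed the test. Other SLC30 genes called higher numbered 1 (Slc30a3) without a filter. Other SLC39 genes called higher numbered 2 with a limit of 5 RPKM. Copper genes called higher numbered 1 with a limit of 5 RPKM, median-of-ratios scaling or quantile normalization, and 1 to 2 when leaving out 1 library (1 without low glutamine replicate 3). Copper genes called lower numbered 7 with median-of-ratios scaling, 2 with a common sum and 1 when that sum left out Rn45s. Iron genes called higher numbered 2 with either rescaling and 3 with quantile normalization. With the replicate number as a block, 4192 genes were higher and 3544 lower, and among the genes named only Slc39a9 and Hspa1b changed their call. That fit gave far smaller adjusted p-values (1.6e-173 for Mt4, against 9.3e-06 in the main fit), so its calls are not relied on. Depth limits Mt3, at 5 to 16 reads per library.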

Other observations

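Most genes of an iron handling list, chosen with earlier results of these data known, were lower in low glutamine. Of 12 tested, 9 fell, 1 rose and 2 did not pass (median -0.40, against 0.03 over all tested genes, of which 30.3% fell). Slc11a2, the apical iron importer DMT1, averaged 13.99 ± 0.566 RPKM in low glutamine and 97.0 ± 6.40 RPKM in control (log2 fold change -2.71 ± 0.060, limma adjusted p = 2.2e-12). Slc40a1, which encodes ferroportin, the iron exporter of the basolateral membrane, went the other way, at 16.03, 14.7 and 17.6 RPKM in low glutamine and 0.294, 0.393 and 0.230 RPKM in control (3.71 ± 0.073, adjusted p = 7.6e-13). It was below 1 RPKM in control and met the limit of 1 RPKM only through low glutamine, and without a limit its adjusted p was 2.9e-06. The ferritin heavy chain Fth1 fell by 0.89 (adjusted p = 1.3e-07). The enterocyte, Paneth and sex-linked differences given above hold for these genes too, and their part was not tested.

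Of 9 copper genes tested, 2 rose, 4 fell and 3 did not pass, where 36.1% of all tested genes were higher and 30.3% lower. The number lower was 7 with median-of-ratios scaling and 1 under the common-sum scaling without Rn45s. The copper importer Slc31a1 averaged 34.5 ± 3.65 RPKM in low glutamine and 60.9 ± 2.47 RPKM in control (-0.81 ± 0.072, adjusted p = 7.6e-07), and the mitochondrial copper chaperone Cox17 fell by 0.28 (adjusted p = 0.0021). The copper-exporting ATPase Atp7b averaged 10.4 ± 0.334 RPKM in low glutamine and 5.97 ± 0.155 RPKM in control (0.71 ± 0.051, adjusted p = 1.1e-07). Slc31a2 rose by 0.23 (adjusted p = 0.011). It did not pass without low glutamine replicate 3 (adjusted p = 0.053), with median-of-ratios scaling (adjusted p = 0.057) or with quantile normalization (adjusted p = 0.18). Cox17 did not pass under the common-sum scaling without Rn45s (adjusted p = 0.072).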
